A study of Mus musculus with 21 samples.

Results

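Bone marrow-derived eosinophils (BMDEs) grown with the iron chelator deferoxamine (DFO) were compared with control BMDEs. The 3 DFO libraries (numbered 9, 11 and 12) and the 2 control libraries (numbered 1 and 2) were chosen by their labels and make up 5 of the 21 libraries of the series. The fit took in these 5 libraries and no others, and 12469 of the 16645 genes in the table had enough counts to be tested. Both groups were wild-type mouse bone marrow cells that had been depleted of red cells and held for 2 hours in adhesion culture, from which the unattached cells were kept. They grew in medium with 20% fetal bovine serum and with stem cell factor (SCF) and FLT3 ligand, each at 100 ng/mL, until day 4, and then with interleukin-5 (IL-5) at 10 ng/mL. The treated cultures received 5 µM DFO from day 4, and all RNA was harvested on day 7. The controls are labelled untreated, and no vehicle is named. Nothing in the labels says that libraries of a group came from separate animals or cultures, so p-values measure only the spread between these libraries, which may be technical. Another arm of the same table, 4 BMDE libraries given ferric ammonium citrate (FAC), an iron source, at 10 µM on day 4, is used below for values set beside those of DFO.

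Iron enters most cells bound to transferrin through the transferrin receptor, is stored in ferritin and leaves through ferroportin. Iron regulatory proteins bind iron-responsive elements in several of these mRNAs, so that a cell short of iron usually holds more transferrin receptor mRNA and translates less ferritin. Heme, iron-sulfur clusters, ribonucleotide reductase and the oxygen-sensing prolyl hydroxylases all need iron. Eosinophils arise from granulocyte progenitors under C/EBP and GATA factors and IL-5, and they fill their granules with major basic protein, eosinophil peroxidase and ribonucleases.

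Total expected counts ran from 16809789 to 17181951 per library, and levels are given in CPM (library-size-scaled counts, with TMM factors). The libraries of a group lay close together: the spread beyond counting noise corresponded to a coefficient of variation of 3.02%, and along the leading principal component (66.8% of the variance) the DFO libraries stood apart from the controls. Prg2, the gene of eosinophil major basic protein, took the most counts in all 5 libraries. A gene is called higher or lower at a Benjamini-Hochberg adjusted p under 0.05 in edgeR's quasi-likelihood test over all 12469 genes. DFO changed 5982 genes (48.0% of those tested), 2957 higher (23.7%) and 3025 lower (24.3%). Most of these differences were small. Changes of at least 1.5-fold were called for 8.41% of genes, 750 higher (6.01%) and 299 lower (2.40%). Changes of at least 2-fold were called for 2.13%, 158 higher (1.27%) and 107 lower (0.858%). These 265 calls became 103 when only genes with a mean of at least 5 CPM were tested. For 8248 genes (66.1%) the 3 DFO libraries all lay on 1 side of both controls, and 54.0% of genes had an unadjusted p under 0.05. When the 4 FAC libraries joined the fit, 1460 genes were called, 814 higher and 646 lower. The spread of the FAC libraries was wide for some genes, which is why they were left out of the main fit. Fth1, a ferritin gene, stood at 1555, 2427, 1322 and 1510 CPM in FAC libraries 5, 6, 7 and 8 (scaled over the 9 libraries). FAC library 6 also stood apart for the proliferation gene Mki67, at 544 CPM against 955, 1148 and 899 CPM in libraries 5, 7 and 8. It did not for the ferroportin gene Slc40a1 (88.3, 85.6, 85.6 and 83.6 CPM in libraries 5, 6, 7 and 8). The part of FAC library 6 in the lower count of calls was not tested. The log2 fold change of Fth1 with DFO was 0.36 in both fits. With so many genes called, the counts of each list below are read against these percentages and beside the list's median log2 fold change, which over all tested genes was 0.00.

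Transcripts of the eosinophil granule proteins fell, and their list had the lowest median of those examined. All 8 tested members were called lower, each by at least 1.5-fold and 7 of them by at least 2-fold, with a median log2 fold change of -1.35. Prg2, at chr2:84980461-84983632, stood at 22569 and 22708 CPM in the controls and 11422, 9786 and 9579.6 CPM with DFO (log2 fold change -1.14, SE 0.0569, adjusted p 2.83e-11). Epx, the gene of eosinophil peroxidase, stood at 14616 and 13817 CPM in the controls and 7901, 7042 and 6829 CPM with DFO (log2 fold change -0.97, SE 0.0519, adjusted p 5.72e-11). Prg3, a homolog of Prg2, stood at 936 and 963 CPM in the controls and 487, 418 and 428 CPM with DFO (log2 fold change -1.10). In these genes every DFO library lay below both controls, and DFO library 9 was the highest of the 3. Per transcript length, in TPM, Prg2 was at 59614 and 60592 in the controls and 31768, 27659 and 27212 with DFO, above Epx in each library. Together the granule genes held 4.32% and 4.26% of all counts in the controls and 2.24%, 1.96% and 1.91% with DFO. In RNA from whole cultures, fewer eosinophils and less of these mRNAs in each eosinophil cannot be told apart. The 8 members were also all called lower without any 1 library and in the fit with the FAC libraries.

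The eosinophil-associated ribonucleases (Ear genes), secreted granule proteins encoded by a cluster of close copies on chromosome 14, had larger log2 fold changes than Prg2 and Epx, a difference between genes that was not tested. Ear1 stood at 1869.8 and 1727 CPM in the controls and 663, 554 and 561 CPM with DFO (log2 fold change -1.60, SE 0.0574, adjusted p 6.87e-13). Ear2 stood at 1643 and 1556 CPM in the controls and 673, 558 and 543 CPM with DFO (log2 fold change -1.44) and Ear6 at 2458 and 2393 CPM in the controls and 1095, 936 and 906 CPM with DFO (log2 fold change -1.31). Ear10 and Rnase2b were far less abundant and fell by 1.63 and 1.40 on the log2 scale. Reads from these near-identical genes can be split between them by the counting, so the value of each member is uncertain. The copies are also alike before their start sites. The 120 bases before the RefSeq start (GRCm38.p6) of 4 of them are shown 5′ to 3′ in gene direction because the granule list moved as a group. Capitals mark TTNNGCAA on either strand, a spelling of the C/EBP binding motif. Ear1 lies at chr14:43819640-43819759 on the minus strand, Ear2 at chr14:44102534-44102653 on the plus strand, Ear10 at chr14:43923597-43923716 on the minus strand and Ear6 at chr14:51853648-51853767 on the plus strand.
Ear1: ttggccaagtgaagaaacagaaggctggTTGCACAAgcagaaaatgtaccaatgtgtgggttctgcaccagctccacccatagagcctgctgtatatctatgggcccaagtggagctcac
Ear2: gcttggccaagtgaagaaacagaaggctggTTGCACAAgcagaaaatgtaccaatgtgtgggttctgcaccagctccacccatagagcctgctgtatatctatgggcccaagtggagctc
Ear10: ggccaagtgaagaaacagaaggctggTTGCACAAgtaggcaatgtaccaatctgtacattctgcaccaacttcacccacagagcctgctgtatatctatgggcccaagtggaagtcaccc
Ear6: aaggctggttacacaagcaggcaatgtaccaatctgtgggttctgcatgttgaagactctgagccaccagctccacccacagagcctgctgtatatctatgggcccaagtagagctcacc
In the 250 bases before the start, 4 of the 7 granule genes with a RefSeq promoter held this motif, against 9.55% of all 27025 promoters and 7.71% of those of tested genes. The 4 are Ear1, Ear2, Ear10 and Rnase2b, which are copies of each other and not independent. Ear6, Epx and Prg3 held none, and all 3 fell as well. Whether C/EBP factors had a part in any of these falls was not tested. The GATA motifs AGATAA or TGATAA were in 1 of the 7, Prg3 (14.3%), against 16.9% of all promoters and 9.39% of those of tested genes.

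**Figure D1:**
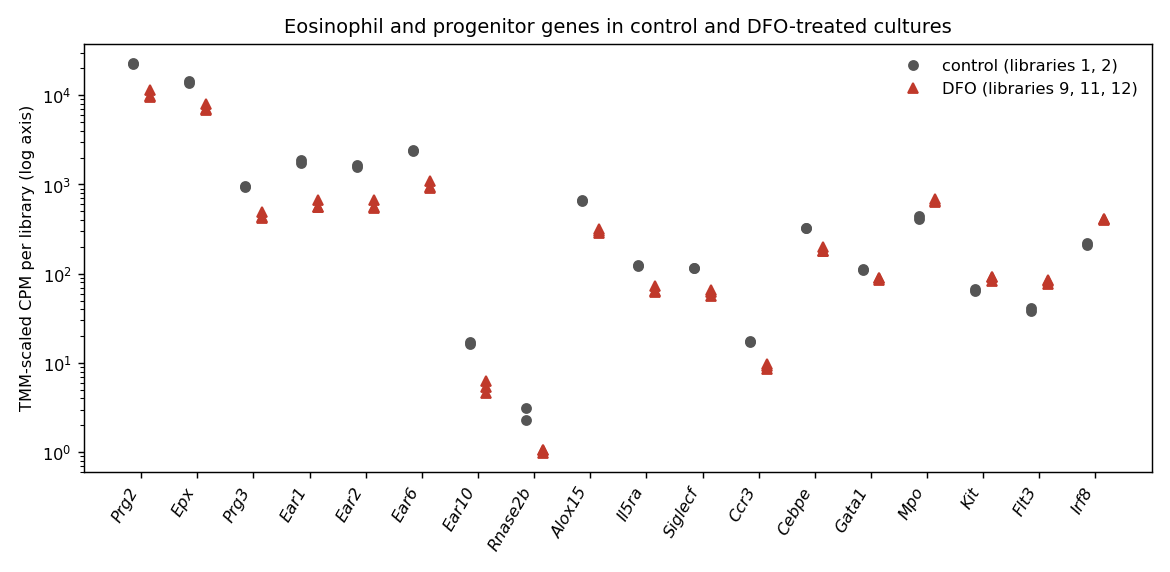
TMM-scaled CPM (log axis) of eosinophil and progenitor genes in each library, with control libraries 1 and 2 as grey circles and DFO libraries 9, 11 and 12 as red triangles. Granule genes, Alox15, Il5ra, Siglecf, Ccr3, Cebpe and Gata1 sit lower with DFO, and Mpo, Kit, Flt3 and Irf8 sit higher.

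The receptors and enzymes listed as eosinophil surface and enzyme genes did not move as a group. Of 25 tested, 11 were called higher and 10 lower, with a median of 0.02. The receptors by which eosinophils are usually recognised were among those that fell. Il5ra, the IL-5 receptor chain, stood at 126 and 123 CPM in the controls and 72.0, 62.4 and 63.5 CPM with DFO (log2 fold change -0.91, SE 0.0522, adjusted p 1.25e-10). Siglecf, a sialic acid-binding lectin used to gate eosinophils, stood at 115 and 115 CPM in the controls and 65.2, 62.6 and 56.6 CPM with DFO (log2 fold change -0.91). Ccr3, the eotaxin receptor, was scarce, at 16.995 and 17.5 CPM in the controls and 9.79, 8.63 and 9.22 CPM with DFO (log2 fold change -0.90). For these receptors the highest DFO library stayed well below the lower control. Alox15, the arachidonate 15-lipoxygenase, fell by 1.13 from 666 and 658 CPM to 319, 289 and 299 CPM, and P2ry14, a UDP-sugar receptor, by 0.56. The 11 that rose included Itgax (CD11c) by 0.74, Hpgds (hematopoietic prostaglandin D synthase) by 0.66, Itga4 (the integrin alpha-4 chain) by 0.49 and Cd300a, an inhibitory receptor, by 0.39. Ltc4s, Csf2rb2, Ccr1 and Il3ra were not called.

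Transcription factors also split. Of 20 tested, 4 were called higher and 10 lower (median -0.10). Cebpe, which drives the late steps of granulocyte maturation and lies at chr14:54710363-54712174, stood at 327 and 328 CPM in the controls and 199, 179 and 178 CPM with DFO (log2 fold change -0.82, SE 0.0436, adjusted p 5.34e-11). Gata1, needed for the eosinophil lineage, stood at 112 and 110.3 CPM in the controls and 90.0, 85.2 and 88.9 CPM with DFO (log2 fold change -0.34). Neither gene overlapped between groups, and the fall of Cebpe was the larger. Id1 fell by 0.51 and Bhlhe40 by 0.33. Irf8, on this list of eosinophil factors, is also a factor of monocyte and dendritic cell fates. It rose from 210.2 and 222 CPM to 398, 409.9 and 408 CPM (log2 fold change 0.91, SE 0.0385, adjusted p 3.7e-12). Cebpa, the factor of early granulocyte progenitors, rose by 0.57, and Zfpm1 and Etv6 by 0.22 and 0.13. In a fit of all 9 BMDE libraries, Gata1 had an adjusted p of 0.0825 and 2 factors were called higher and 2 lower.

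Progenitor genes leaned higher, with 11 of 18 called higher, 4 lower and a median of 0.31. Flt3, the receptor of the FLT3 ligand used in the first days of culture, stood at 38.4 and 41.0 CPM in the controls and 77.1, 86.0 and 83.3 CPM with DFO (log2 fold change 1.05, SE 0.0575, adjusted p 8.15e-11). Kit, the SCF receptor, stood at 63.7 and 67.6 CPM in the controls and 82.8, 91.3 and 92.7 CPM with DFO (log2 fold change 0.44), and Mpo, myeloperoxidase of the early granules, at 442 and 411 CPM in the controls and 641, 656 and 689 CPM with DFO (log2 fold change 0.63). Each of these was higher in every DFO library than in either control. Cd34, a stem and progenitor surface protein, rose by 0.50. The list was not uniform: Prss57, a granule protease, fell by 0.79, Nkg7 by 0.64, the chaperone Calr by 0.54 and Myb by 0.25. Summed over the list, progenitor genes took 0.634% and 0.625% of counts in the controls and 0.585%, 0.569% and 0.575% with DFO, the opposite direction to the median. Calr, which fell, stood at 3825 and 3774 CPM in the controls.

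Markers of other marrow cells were present in both groups and several sets were higher with DFO. Of 16 neutrophil markers 13 were called higher and 2 lower (median 0.73, with 11 higher by at least 1.5-fold). Ltf, the lactoferrin of secondary granules, stood at 1138 and 976 CPM in the controls and 2235, 2321 and 2084 CPM with DFO (log2 fold change 1.07, SE 0.0560, adjusted p 4.91e-11), and Ngp and Lcn2 rose by 0.83 and 0.90. S100a8 and S100a9, calcium-binding proteins of neutrophils and monocytes, rose by 0.73 and 0.83. Ly6g, the neutrophil surface antigen, went against its list, at 20.9 and 20.8 CPM in the controls and 8.26, 7.53 and 8.22 CPM with DFO (log2 fold change -1.38). The whole neutrophil list took 1.33% and 1.13% of counts in the controls and 2.21%, 2.30% and 2.06% with DFO, and none of its 16 genes lacked counts. Its part in the fall of eosinophil shares was not tested.

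Dendritic cell genes rose with DFO. Of 16 plasmacytoid dendritic cell markers 15 were called higher and none lower (median 0.80), against 13 higher and 1 lower without DFO library 12. Siglech, a lectin of these cells, stood at 117 and 129 CPM in the controls and 258, 250.03 and 270.3 CPM with DFO (log2 fold change 1.08, SE 0.0466, adjusted p 4.19e-12). Ccr9, a chemokine receptor, stood at 76.2 and 84.6 CPM in the controls and 176, 188 and 190.3 CPM with DFO (log2 fold change 1.20). The endosomal RNA sensor Tlr7 and the transcription factor Spib rose by 0.86 and 0.85. All DFO libraries were above the controls for these 4 genes. Of 13 classical dendritic cell markers 11 were called higher and none lower (median 0.71), with the class II antigen presentation genes H2-Aa, H2-Ab1 and H2-Eb1 up by 0.71, 0.71 and 0.75. Flt3 and Itgax are members of this list too. The plasmacytoid list took 0.1005% and 0.1039% of counts in the controls and 0.1784%, 0.1797% and 0.1841% with DFO, and the classical list 0.208% and 0.218% against 0.347%, 0.339% and 0.358%.

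Other lineages moved less, or in both directions. Megakaryocyte and platelet genes rose, with 9 of 10 called higher (median 0.46), among them Vwf (von Willebrand factor) by 0.63 and Ppbp, a platelet chemokine, by 0.49. Monocyte and macrophage genes split, with 11 higher and 3 lower of 18 (median 0.21). Cx3cr1, the fractalkine receptor, rose by 1.00 and Ccr2 by 0.57. Vcam1, an adhesion molecule, fell from 201 and 192 CPM to 78.2, 64.7 and 55.0 CPM, a log2 fold change of -1.58. Mast cell and basophil genes were 5 higher (3 without control library 1 or with DESeq2) and 3 lower of 12 (median 0.02), with Prss34, a basophil protease, up by 0.70 and Cpa3, a mast cell protease, down by 0.23. B cell genes fell, with 6 of 8 lower and a median of -0.63. They were scarce throughout, at 0.0207% and 0.0219% of counts in the controls and 0.0143%, 0.0143% and 0.0140% with DFO. Of 6 tested erythroid genes 3 were called higher and 2 lower (median 0.01), with 1 lower without control library 2 or with DESeq2. The erythroid list took 0.0109% and 0.0120% of counts in the controls and 0.0133%, 0.0131% and 0.0140% with DFO. Igll1 of the B cell list and Slc4a1, a defining erythroid membrane protein, had no counts in any of the 5 libraries.

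**Figure D2:**
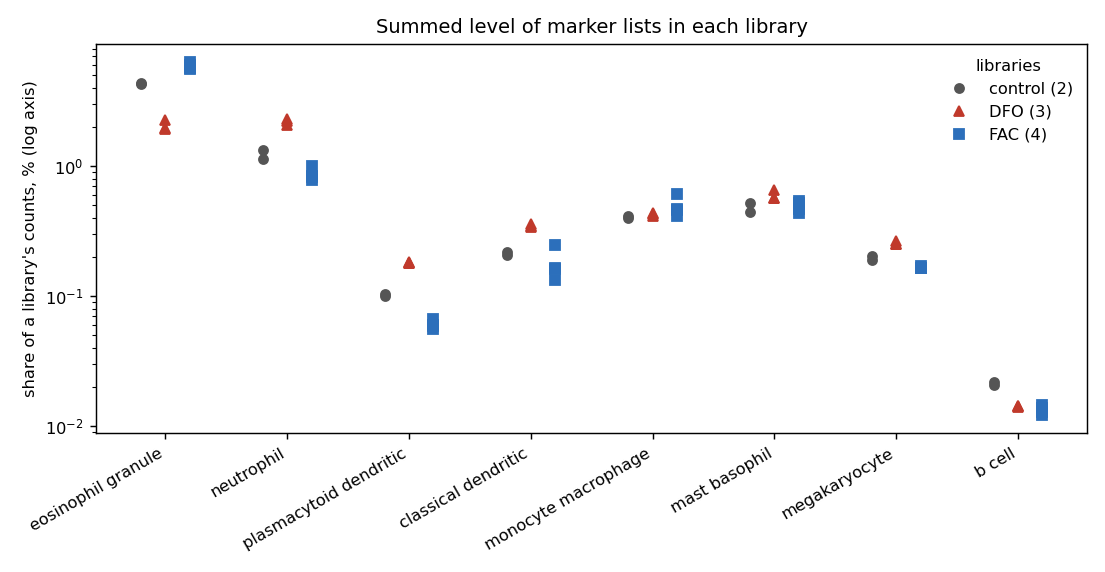
Share of each library's counts (percent, log axis) taken by 8 marker lists, with controls as circles, DFO as triangles and FAC as squares. The granule list falls from 4.32% and 4.26% to between 1.91% and 2.24% with DFO, while the neutrophil and both dendritic lists lie higher.

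Interferon-stimulated genes rose together. Of 23 tested, 22 were called higher and none lower, 14 by at least 1.5-fold and 5 by at least 2-fold, with a median log2 fold change of 0.72. Ifit2, which binds viral RNA, stood at 25.8 and 22.0 CPM in the controls and 51.0, 52.5 and 45.7 CPM with DFO (log2 fold change 1.06, SE 0.0760, adjusted p 2.5e-09). Oas3, which makes the activator of RNase L, stood at 32.2 and 27.0 CPM in the controls and 59.9, 53.3 and 55.0 CPM with DFO (log2 fold change 0.92). Irf7, the factor that amplifies interferon production, stood at 56.5 and 49.7 CPM in the controls and 108, 94.5 and 92.4 CPM with DFO (log2 fold change 0.89). All DFO libraries lay above both controls for these genes. Rsad2 (viperin), an antiviral iron-sulfur enzyme, rose by 1.00, and Isg15, a ubiquitin-like modifier, and Ifit1 by 0.88 and 0.85. Bst2 and Irf7 are also on the plasmacytoid dendritic cell list, whose summed level moved the same way as given above, and its part in these rises was not tested. Leaving out any 1 library left 22 members called higher, and the fit with the FAC libraries called 12.

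Many of these genes hold the interferon-stimulated response element, and 3 are shown because the list moved as a group. Capitals mark GAAANNGAA on either strand, the core of that element, in the 120 bases before the RefSeq start (GRCm38.p6), 5′ to 3′ in gene direction. Isg15 lies at chr4:156200819-156200938 on the minus strand, Ifit1 at chr19:34640769-34640888 on the plus strand and Oas3 at chr5:120777660-120777779 on the minus strand.
Isg15: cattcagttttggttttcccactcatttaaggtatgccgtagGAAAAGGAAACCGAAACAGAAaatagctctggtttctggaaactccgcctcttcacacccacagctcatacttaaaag
Ifit1: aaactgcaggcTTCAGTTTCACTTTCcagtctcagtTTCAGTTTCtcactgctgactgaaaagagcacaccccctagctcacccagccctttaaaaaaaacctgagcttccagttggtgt
Oas3: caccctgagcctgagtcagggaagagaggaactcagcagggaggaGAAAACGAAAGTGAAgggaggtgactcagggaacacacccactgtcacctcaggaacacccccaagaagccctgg
The capitals in Isg15 are 3 overlapping matches. Of the 19 tested members with a RefSeq promoter, 12 held the core in the 250 bases before the start (63.2%), against 7.16% of all promoters and 6.52% of those of tested genes. Ifit2, Irf7 and Ifi44 held none there and also rose, and Gbp3 held the core and was not called (log2 fold change 0.23).

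**Figure D3:**
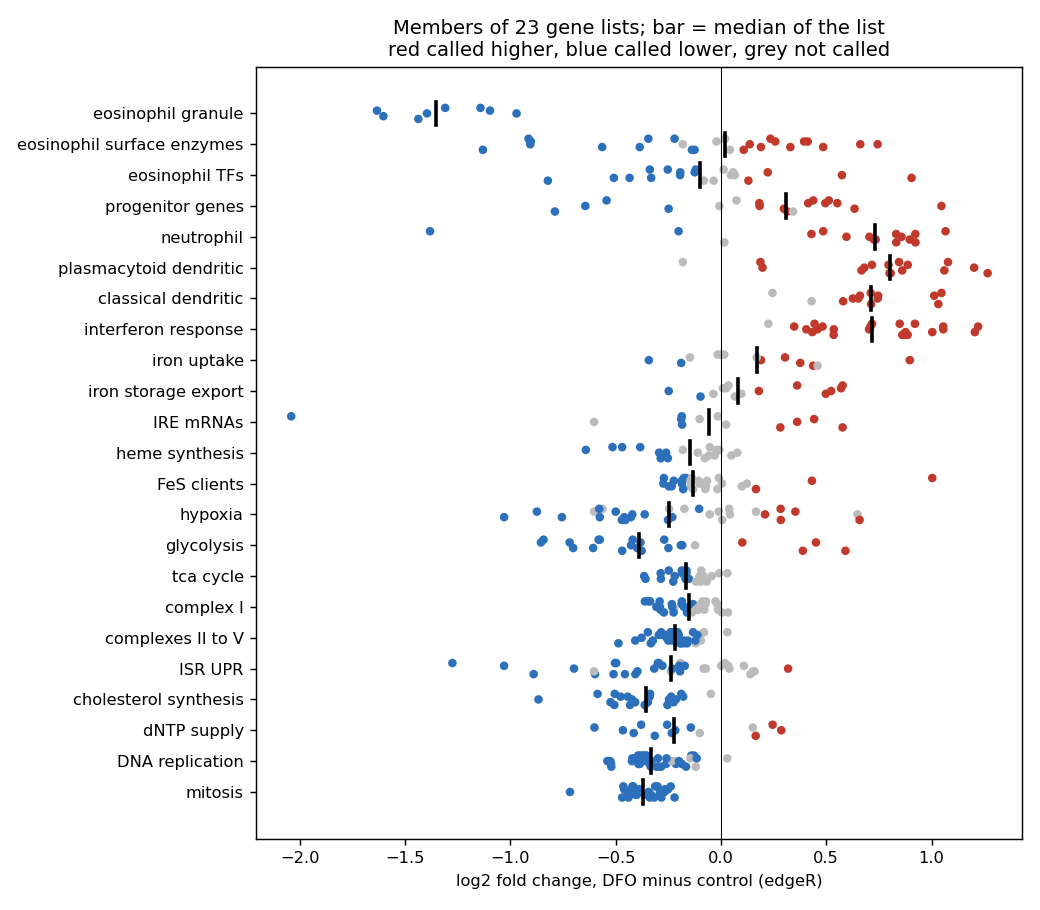
Log2 fold change (DFO minus control) of every tested member of 23 gene lists, 1 point a gene, with red called higher, blue called lower and grey not called, and a bar at each list's median. The granule list lies below -0.9 throughout, the interferon and dendritic lists lie mostly above 0.3, and the mitosis list lies wholly below 0.

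Genes of DNA synthesis and division were lower, by small amounts. All 30 tested mitosis genes were called lower (median -0.37), 1 of them by at least 1.5-fold. Ube2c, a ubiquitin-conjugating enzyme of the anaphase-promoting complex, stood at 128 and 127 CPM in the controls and 83.3, 75.6 and 73.6 CPM with DFO (log2 fold change -0.72, SE 0.0484, adjusted p 1.14e-09). Mki67, the proliferation antigen Ki-67, stood at 873 and 901 CPM in the controls and 740.4, 711 and 709 CPM with DFO (log2 fold change -0.30). Cyclin A2 (Ccna2), Cdk1 and Top2a fell by 0.47, 0.46 and 0.42. Of 39 DNA replication genes 34 were called lower and none higher (median -0.33), among them the helicase subunits Mcm3 and Mcm5 (-0.42 and -0.39) and the origin-licensing factor Cdc6 (-0.53). In the fit with the FAC libraries 15 mitosis and 17 replication genes were called lower.

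Ribonucleotide reductase, the iron enzyme that makes deoxyribonucleotides, was lower at both of its main subunits. Rrm2, the iron-bearing subunit, stood at 263 and 271 CPM in the controls and 177, 172 and 179.5 CPM with DFO (log2 fold change -0.60, SE 0.0372, adjusted p 3.97e-10), and Rrm1 fell by 0.38. Their libraries did not overlap between groups. Rrm2b, the subunit induced by p53, rose by 0.29. Dut and Nme1, enzymes of nucleotide supply, fell by 0.47 and 0.41, and 9 of 14 genes of the list were lower (5 with DESeq2) and 3 higher (median -0.22). Among p53 targets 6 were called higher and 7 lower of 21 (median -0.04), and 4 were lower without control library 2, with DESeq2 or with length and GC offsets. Btg2 rose by 0.43 and Eda2r by 0.84, while Perp fell by 0.67 and Bax by 0.26. Cdkn1a (p21) stood at 143 and 143 CPM in the controls and 132, 137 and 129 CPM with DFO, a log2 fold change of -0.10 (adjusted p 0.0387) that was not called without control library 1 or 2 or without DFO library 9 or 12.

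G1 regulators did not fall as a group, with 2 of 18 called higher and 6 lower (median -0.07), and 1 higher without control library 1 or 2 or DFO library 9 and with DESeq2. Ccnd1 (cyclin D1) rose from 40.2 and 42.6 CPM to 84.1, 83.9 and 89.4 CPM (log2 fold change 1.05, SE 0.0528, adjusted p 2.99e-11). Cdk4 and Cdk2 fell by 0.25 and 0.20, and Cdkn2a, a low-level inhibitor gene, by 1.26. Myc fell by 0.44 and its relative Mycl rose by 1.10. Of 27 Myc and ribosome biogenesis genes 24 were lower and 2 higher (median -0.22), with Srm, spermidine synthase, down by 0.64 and nucleolin (Ncl) by 0.24. Genes that respond to STAT5, which IL-5 activates, were 8 lower and 3 higher of 15 (median -0.20). The feedback inhibitor Cish stood at 70.4 and 65.3 CPM in the controls and 35.5, 32.0 and 32.5 CPM with DFO (log2 fold change -1.03, SE 0.0584, adjusted p 1.23e-10), and Socs1, Pim2 and Pim1 fell by 0.90, 0.78 and 0.52. Bcl6, a repressor that STAT5 lowers and a member of the same list, rose by 0.77. The other members called higher, Gadd45g and Ccnd2 (log2 fold changes 0.27 and 0.11), both lost their calls with DESeq2 and without control library 1 or 2 or DFO library 9 or 12, which left 1 called higher.

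The genes that handle iron itself moved little, and not all in 1 direction. Tfrc, the transferrin receptor, stood at 510.4 and 494 CPM in the controls and 493, 503 and 495 CPM with DFO, and the groups overlapped (log2 fold change -0.01, SE 0.0354, adjusted p 0.751). Slc11a2 (DMT1), the endosomal iron transporter, stood at 42.9 and 41.1 CPM in the controls and 38.9, 35.9 and 35.8 CPM with DFO (log2 fold change -0.19, adjusted p 0.0136), a call lost without control library 1 (adjusted p 0.102) or DFO library 11 (adjusted p 0.0567) and with the DESeq2 Wald test (adjusted p 0.0863). Of 13 tested uptake genes 5 were called higher and 2 lower (median 0.17). The largest rise was that of Lcn2 (log2 fold change 0.90), which is on the neutrophil list as well. Slc11a1 (NRAMP1), the phagosomal iron pump, and Lrp1, a receptor for heme-hemopexin, rose by 0.44 and 0.38, and the metal importer Slc39a8 fell by 0.34.

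Export and storage genes were mixed. Slc40a1, which encodes ferroportin, the cellular iron exporter, at chr1:45908070-45926532, stood at 106 and 104 CPM in the controls and 153, 161 and 157 CPM with DFO (log2 fold change 0.58, SE 0.0411, adjusted p 2.26e-09). Fth1, the ferritin heavy chain, stood at 1378 and 1325 CPM in the controls and 1692, 1723 and 1796 CPM with DFO (log2 fold change 0.36, adjusted p 4.25e-07). The light chain Ftl1 stood at 4406 and 4227 CPM in the controls and 4333, 4410.1 and 4428 CPM with DFO and was not called (log2 fold change 0.02, adjusted p 0.626). So the DFO libraries lay above the controls for Slc40a1 and Fth1 but among them for Ftl1. The ferroxidase Heph rose by 0.57 at low levels, a call lost without control library 2, and Hmox1, heme oxygenase, was not called (0.10). Ncoa4, the ferritin receptor for autophagy, stood at 569 and 599 CPM in the controls and 549, 559 and 529.9 CPM with DFO, a log2 fold change of -0.10 that was not called without control library 2 or DFO library 12. Of 14 tested genes 6 were called higher and 2 lower (median 0.08), against 3 higher and 1 lower without control library 2 and 2 higher and 1 lower with DESeq2. Without DFO library 12, 6 were higher and 1 lower. In the fit with the FAC libraries 1 was called, Slc40a1, whereas the adjusted p of Fth1 was 0.333. The log2 fold change of Fth1 in that fit was again 0.36.

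Regulators of iron balance and mRNAs with iron-responsive elements showed no shared direction. Ireb2, the iron regulatory protein IRP2, was not called (log2 fold change -0.05, adjusted p 0.362). Fbxl5, the ubiquitin ligase that degrades it when iron is present, stood at 65.1 and 55.3 CPM in the controls and 75.9, 74.8 and 66.7 CPM with DFO (log2 fold change 0.27, adjusted p 0.00243), and the adjusted p was 0.091 without control library 2. Bach1, a heme-sensing repressor, rose by 0.23, though its adjusted p was 0.0557 without control library 2. Among 12 mRNAs with such an element 4 were higher and 4 lower, 2 with DESeq2 (median -0.06), with Slc40a1 and Fth1 up and Slc11a2 down. Hao1, a peroxisomal oxidase on this list, fell by 2.04 on the log2 scale but stood at only 1.19 and 1.43 CPM in the controls and 0.354, 0.290 and 0.294 CPM with DFO.

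Heme synthesis genes were lower or not called. Of 18 tested, 8 were called lower and none higher (median -0.14). Alas1, the rate-limiting enzyme outside red cells, stood at 492 and 477 CPM in the controls and 364, 342 and 345 CPM with DFO (log2 fold change -0.47, SE 0.0376, adjusted p 1.02e-08). Abcb10, a mitochondrial transporter of heme biogenesis, and Cpox, coproporphyrinogen oxidase, fell by 0.64 and 0.51. Fech, the iron-inserting ferrochelatase, fell by 0.26. Iron-sulfur cluster assembly genes were 12 lower and 2 higher of 29 (median -0.16). The lower calls numbered 7 without control library 2 and 8 with DESeq2, and the fit with the FAC libraries called none of the list. The scaffold Iscu rose by 0.22 and its co-chaperone Hscb by 0.42, while Ciapin1 fell by 0.33. Proteins that carry such clusters were 10 lower (6 with DESeq2) and 3 higher of 27 (median -0.13), and Sdhb of succinate dehydrogenase was not called (log2 fold change -0.10, adjusted p 0.131).

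**Figure D4:**
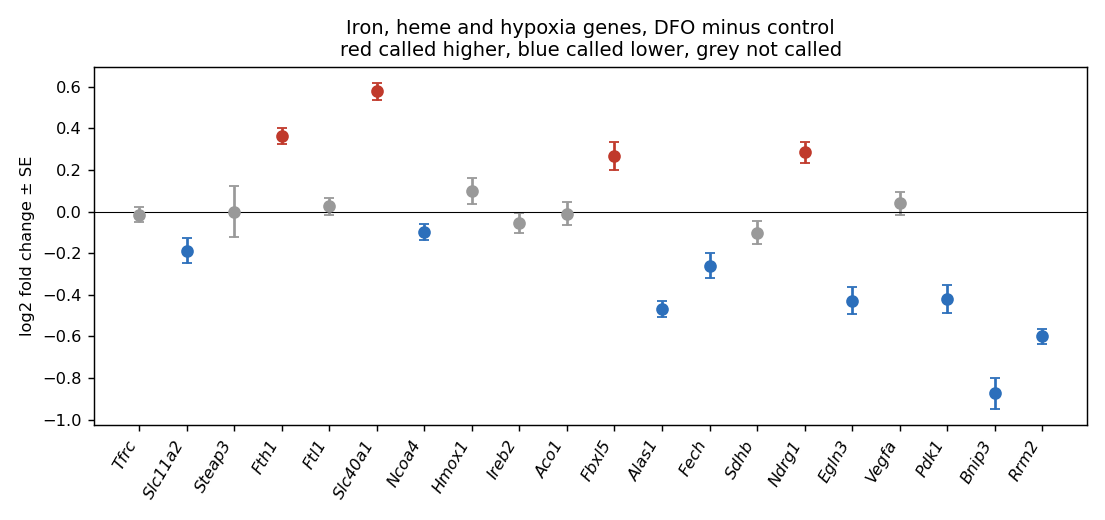
Log2 fold change (DFO minus control) with its SE for genes of iron handling, heme, iron-sulfur proteins, hypoxia and Rrm2, with red called higher, blue called lower and grey not called. Tfrc sits at -0.01, Slc40a1 at 0.58, Alas1 at -0.47 and Bnip3 at -0.87.

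The hypoxia list holds the hypoxia-inducible factors, which iron chelators can stabilise by blocking prolyl hydroxylases, and targets of these factors. Its genes moved in both directions. Of 31 tested, 15 were called lower, 5 higher and 11 not called (median -0.25). Bnip3, a mitophagy receptor, stood at 51.6 and 46.5 CPM in the controls and 30.1, 24.6 and 25.6 CPM with DFO (log2 fold change -0.87, SE 0.0751, adjusted p 2.4e-08). Pdk1, a kinase that inhibits pyruvate dehydrogenase, stood at 42.6 and 42.5 CPM in the controls and 33.5, 28.8 and 33.0 CPM with DFO (log2 fold change -0.42). Egln3, an oxygen-sensing prolyl hydroxylase and itself a target, stood at 46.5 and 40.7 CPM in the controls and 33.7, 30.8 and 32.8 CPM with DFO (log2 fold change -0.43). The groups did not overlap for these 3 genes. The glucose transporter Slc2a1 and Ero1a, an endoplasmic reticulum oxidase, fell by 0.58 and 0.46. Vegfa was not called (log2 fold change 0.04, adjusted p 0.595). Ndrg1, known to rise with iron chelation, rose by 0.28, Pfkfb3 by 0.35 and Plin2, a lipid droplet protein, by 0.28. In the fit with the FAC libraries 5 members of the list were called lower and 1 higher, and the adjusted p of Bnip3 was 0.0542. Iron-dependent dioxygenases as a list were 10 higher and 10 lower of 34 (median -0.01), with the demethylases Tet1 and Tet2 up by 0.88 and 0.32 and the collagen hydroxylase subunits P4hb and P4ha1 down by 0.57 and 0.45. Of this list 3 were called lower and none higher in the fit with the FAC libraries, where Tet1 and Tet2 lost their calls.

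Glycolysis genes fell, with 17 of 22 called lower and 4 higher (median -0.39, 5 lower by at least 1.5-fold). Pgk1, phosphoglycerate kinase, stood at 845 and 825 CPM in the controls and 551, 477 and 513 CPM with DFO (log2 fold change -0.70, SE 0.0462, adjusted p 8.73e-10). Tpi1, triosephosphate isomerase, stood at 417 and 415 CPM in the controls and 255, 200.3 and 235 CPM with DFO (log2 fold change -0.85), and the lactate exporter Slc16a3 at 199 and 186 CPM in the controls and 124, 109 and 118 CPM with DFO (log2 fold change -0.72). No DFO library reached the lower control for these enzymes. Members that rose were Hk3, Eno3, Ldhb and, by 0.10, Slc2a3, the last of which was not called without control library 2 or without DFO library 9 or 11. Leaving out 1 library at a time left 17 members lower in every case. The fit with the FAC libraries called 10 lower and 1 higher.

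Mitochondrial genes encoded in the nucleus leaned lower, by smaller amounts. Of 24 citric acid cycle genes 14 were lower and none higher (median -0.16), of 36 complex I subunits 18 lower (11 with DESeq2) and none higher (median -0.15), and of 39 subunits of complexes II to V 33 lower and none higher (median -0.22). No member of these 3 lists changed by 1.5-fold. Atp5g3, an ATP synthase ring subunit, stood at 197 and 192 CPM in the controls and 152, 149 and 148 CPM with DFO (log2 fold change -0.38, SE 0.0375, adjusted p 1.48e-07), and the cytochrome oxidase subunit Cox6c fell by 0.49. Short transcripts were lower in general: over all genes the median log2 fold change was -0.07 in the fifth with the shortest transcripts and 0.10 in the fifth with the longest. Once transcript length and GC content entered the fit as offsets, the medians were -0.11, -0.10 and -0.17 for the 3 lists, against -1.31 for the granule list. In the fit with the FAC libraries 1 member of these lists, from the citric acid cycle, was called. None of 13 listed mitochondrially encoded genes was found by name among the genes given, so they were not analysed here.

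Genes of the integrated stress and unfolded protein responses leaned lower, with 19 of 33 called lower and 1 higher (median -0.24). Atf4, the central factor of the integrated response, stood at 371 and 365 CPM in the controls and 269, 264 and 250.1 CPM with DFO (log2 fold change -0.50, SE 0.0379, adjusted p 5.08e-09). Slc7a11, the cystine importer, stood at 172 and 169 CPM in the controls and 93.7, 94.8 and 87.0 CPM with DFO (log2 fold change -0.89). Trib3 and Stc2 fell by 1.27 and 1.03 from low levels. The chaperones Hsp90b1, Sdf2l1 and Hspa5 of the endoplasmic reticulum fell by 0.50, 0.70 and 0.46. Ddit3 (CHOP), Atf3 and Chac1 were not called. The promoters of Slc7a11 and Asns, asparagine synthetase (log2 fold change -0.51), are shown because they hold the composite element that Atf4 and C/EBP factors bind; capitals mark TGATGNAA on either strand. The windows are the 120 bases before the RefSeq start (GRCm38.p6), 5′ to 3′, at chr3:50443614-50443733 and chr6:7693210-7693329, both on the minus strand. RefSeq's span of Slc7a11 reaches further upstream than the start used here, to base 50499087.
Slc7a11: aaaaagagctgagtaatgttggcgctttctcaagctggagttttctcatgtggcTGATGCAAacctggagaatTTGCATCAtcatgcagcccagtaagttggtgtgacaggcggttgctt
Asns: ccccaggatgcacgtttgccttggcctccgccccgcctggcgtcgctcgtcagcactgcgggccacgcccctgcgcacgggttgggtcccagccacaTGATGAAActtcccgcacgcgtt
This motif was in the 250 bases before the start of 7 of the 30 tested members with a RefSeq promoter (23.3%), against 3.53% of all promoters and 2.15% of those of tested genes. Chac1 and Atf3 were among the 7 and were not called, and Trib3 was not among them.

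Cholesterol synthesis genes fell almost throughout, with 21 of 22 called lower and none higher (median -0.35). Fdps, farnesyl diphosphate synthase, stood at 326 and 316 CPM in the controls and 189, 173 and 166 CPM with DFO (log2 fold change -0.87, SE 0.0455, adjusted p 4.91e-11). Cyp51, a sterol demethylase and an iron enzyme, stood at 326 and 337 CPM in the controls and 241, 239 and 234 CPM with DFO (log2 fold change -0.48). Lss, lanosterol synthase, fell by 0.59. Srebf2, which encodes the factor that drives the pathway, was the member not called. Leaving out any 1 library left 20 or 21 members lower, and the fit with the FAC libraries called 10.

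Among called genes with a mean of at least 5 CPM and groups that did not overlap, the 12 largest falls included Ear10, Ear1 and Vcam1, given above. Car4, a membrane carbonic anhydrase, fell the furthest, from 18.3 and 17.6 CPM to 5.55, 4.29 and 4.82 CPM (log2 fold change -1.88, SE 0.114, adjusted p 2.87e-10). Akr1c18, a steroid dehydrogenase, fell by 1.72, Naaladl1, a peptidase, by 1.64, Map1b, a microtubule-associated protein, by 1.62, Kdelr3, a retrieval receptor of the secretory pathway, by 1.59 and the organic anion exporter Abcc2 by 1.49. The uncharacterised LOC115488343, LOC115487110 and Gm52042 fell by 1.80, 1.73 and 1.59. The 12 largest rises were led by 2210418O10Rik, at 0.416 and 1.13 CPM in the controls and 12.3, 5.68 and 6.17 CPM with DFO (log2 fold change 3.37), where DFO library 9 stood apart from the other two. Grin2c, a glutamate receptor subunit, Rnf122, a ubiquitin ligase, and Cd300c, an activating receptor, rose by 1.46, 1.43 and 1.27. Kdr, a VEGF receptor, stood at 15.1 and 14.3 CPM in the controls and 33.7, 33.8 and 35.6 CPM with DFO (log2 fold change 1.22), and Ifi44, Cxcl10, Ccr9, Adam23, Rpgrip1, Havcr1 and Upb1 rose by between 1.15 and 1.22.

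**Figure D5:**
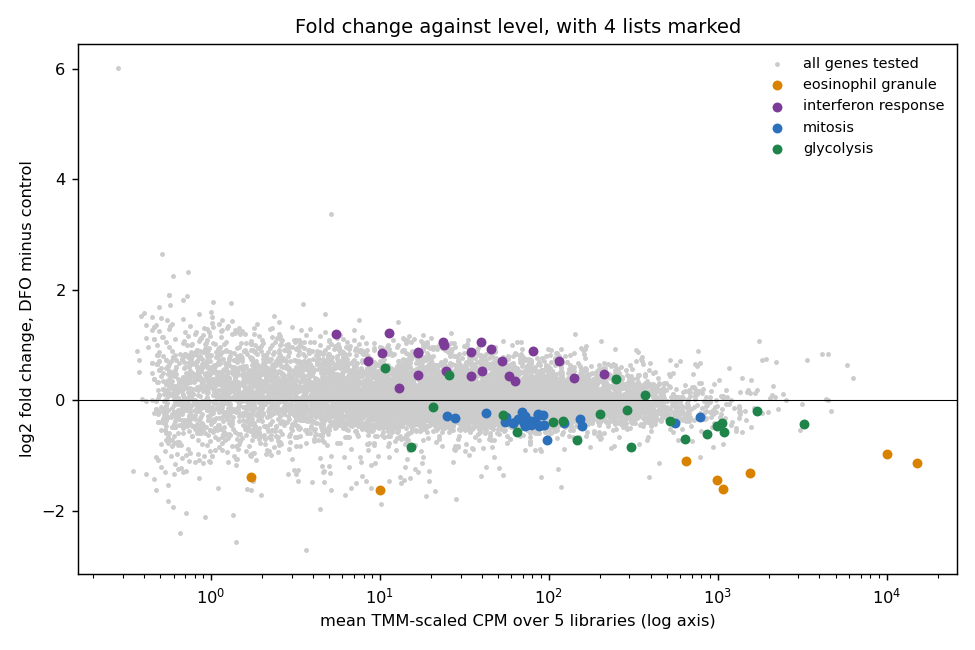
Log2 fold change (DFO minus control) of the 12469 tested genes against their mean TMM-scaled CPM over the 5 libraries (log axis), with 4 lists coloured. Granule genes reach the highest levels in the table and lie near or below -1, interferon genes lie above 0, and mitosis and most glycolysis genes lie between -1 and 0.

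The FAC libraries, given iron in place of a chelator, are set beside these values. Both comparisons use the same 2 controls, so they are not independent and no correlation between them is given. In the fit of all 3 arms, FAC changed 761 of 12607 genes against control (6.04%), and DFO and FAC differed in 6080 (48.2%). DFO changed 1460 genes against control in that same fit, which is the count to set beside the 761. The granule list had a median of 0.74 with FAC and -1.35 with DFO. Prg2 stood at 32871, 40406, 29241 and 31308 CPM in the FAC libraries, scaled over the 9 libraries and all above the controls (log2 fold change 0.61, adjusted p 0.0347). Car4, Akr1c18 and Alox15, which fell with DFO, rose with FAC by 1.304, 1.12 and 0.67. The interferon list had a median of -0.75 with FAC and 0.72 with DFO, and the plasmacytoid dendritic list -0.81 and 0.80. Ccr9, Siglech and Kdr fell with FAC by 1.45, 1.26 and 1.37. Tfrc fell with FAC, to 313, 313, 340.1 and 316 CPM (log2 fold change -0.60, adjusted p 0.00178), and was not called with DFO. B cell genes were lower in both arms, Ms4a1 by 1.11 with DFO and by 0.90 with FAC. 2210418O10Rik was higher in both (log2 fold change 2.76 with FAC).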

How the data were processed

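Poly(A) RNA of 2 control and 3 DFO BMDE libraries was compared. The authors deposited expected counts (estimated reads per gene, not normalized) and TPM (reads per transcript length, scaled to the same sum in each library) per the file headers. The submitters' processing notes name RSEM and HISAT2 without a version, StringTie 1.3.1, Bowtie2 2.2.8 and fastp 0.18.0, with the mm10 build; which tool made which column, and the strand setting, are not given in the sources used here, so reads of a gene and of an overlapping antisense gene cannot be told apart. Symbols were looked up by Entrez number for 16596 of 16645 genes, since 23 symbols had turned into dates.

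Expected counts were rounded. Genes passing filterByExpr (12469) were fitted with TMM factors in edgeR 4.0.16 under R 4.3.3 by the two-sided quasi-likelihood F test, on the 5 libraries alone, with Benjamini-Hochberg adjustment over all genes tested. An exact permutation of 2 against 3 libraries cannot give p below 0.2. The script was tested on simulated data. Within-group pairs of libraries differed by 2.29 to 2.75 in chi-square per gene, above counting noise, so none was counted as a repeat. The reads carry no molecular identifiers.

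The members and gene lists were chosen with earlier results of these data known. The lists overlap in part and are described by counts and medians, with no test of a list. Named genes were a fixed panel, the 12 largest rises and 12 largest falls (called, not overlapping, mean of at least 5 CPM), and in each list the called members, or the 4 with the smallest p in each direction; other members named with a value were picked for their known role. TPM was used only to check levels per length. Promoters came from RefSeq (GRCm38.p6), by gene number. The 250 bases before the most upstream start given there were searched on both strands. For some genes RefSeq's gene span reaches further upstream. Other searches gave shares of listed against tested genes. The interferon core was in 2 of 12 plasmacytoid genes (16.7% against 6.52%). The hypoxia factor core ACGTG was in 16 of 28 hypoxia and 9 of 21 glycolysis genes (57.1% and 42.9% against 21.7%). TTTNNCGC (E2F) was in 9 of 31 replication genes (29.0% against 7.23%). TTTGAA (CHR) was in 9 of 26 mitosis genes (34.6% against 11.1%). TCACNCCAC (sterol element) was in 1 of 16 cholesterol genes (6.25% against 0.876%). Alternatives were DESeq2 1.42.0, limma-voom (limma 3.58.1), other factors, other filters, all 3 arms in 1 fit, and leaving out each library; length and GC offsets were added after the data were seen.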

Additional observations from a re-analysis of the deposited data

How the results depend on the processing

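No paired analysis was possible because control and DFO libraries share no replicate numbers. The count of 5982 called genes was 5969 with DESeq2 size factors, 5978 with upper-quartile factors, 4337 with the DESeq2 Wald test, 5947 with limma-voom, 5540 with no filter, 5565 with a mean of at least 5 CPM and 5942 with length and GC offsets. It fell to 1460 with the 3 arms in 1 fit (814 higher, 646 lower), 1458 of them also called without FAC. Leaving out 1 library gave 4854 to 5726 calls, 2375 to 2803 higher and 2479 to 2923 lower. Calls of at least 2-fold numbered 265, 103 with a mean of at least 5 CPM, and 241 to 298 without 1 library. In each of these alternatives no gene also called in the fit of 5 libraries changed sign. The 282 named genes include some with no call to lose, such as Tfrc, Ftl1 and Vegfa. Of the 282, 138 lost a call in the fit of 3 arms, 27 with the DESeq2 Wald test and 9 with no filter. With the offsets 8 lost a call, with a mean of at least 5 CPM 2, and without 1 DFO library 11 or 12. Tfam, Ccng1 and Prdx5 lost theirs without control library 2, which leaves 1 control. Ireb2 was called lower with the offsets and Hmox1 higher without control library 1. List medians near 0 changed sign. Iron uptake was -0.004085 with the DESeq2 Wald test and -0.006047 with no filter. The iron-responsive element list was 0.002413 with the DESeq2 Wald test, 0.0001783 with no filter and 0.01764 with a mean of at least 5 CPM. The p53 targets ran from -0.03713 to 0.01924 without 1 library, above 0 without control library 2 (0.004741) and DFO library 12. Zinc genes were -0.02093 with the offsets, and mast cell and basophil genes ran from -0.007753 to 0.04874 without 1 library, below 0 without control library 1 (-0.001773) and DFO library 11. The cause of these changes was not tested.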

Other observations

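Further lists, not described above, held smaller or mixed shifts. Lysosomal genes leaned higher with DFO, with 14 of 26 called higher and 2 lower (median 0.11), against 9 higher and 3 lower without control library 2. Without control library 1 or DFO library 11 it was 1 lower. Ctsl, the protease cathepsin L, stood at 117 and 113 CPM in the controls and 191, 196 and 201 CPM with DFO (log2 fold change 0.77, SE 0.0409, adjusted p 5.46e-11), with no overlap between groups. Psap, the precursor of the saposins, and Npc1, the lysosomal cholesterol transporter, both rose by 0.40, and Ctsh, cathepsin H, fell by 0.53. In the fit with the FAC libraries 1 lysosomal gene was called, and it was lower. Targets of NF-kB and chemokines were 12 higher and 3 lower of 23 (median 0.17). Ccl5 stood at 42.8 and 46.3 CPM in the controls and 85.1, 86.2 and 84.3 CPM with DFO (log2 fold change 0.94), and the NF-kB subunits Relb and Nfkb2 rose by 0.78 and 0.55 while Nfkb1 fell by 0.15. Ccl6, a chemokine of eosinophils and macrophages, moved the other way, at 1115 and 1146 CPM in the controls and 542, 543 and 574 CPM with DFO (log2 fold change -1.03).

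Immediate early genes were 12 higher and 4 lower, 2 lower without control library 2 or with DESeq2, of 22 (median 0.20), with the nuclear receptor Nr4a3 up by 0.70, Jun up by 0.45 and Jund down by 0.46. Apoptosis regulators were 8 higher and 6 lower (3 with DESeq2) of 21 (median 0.06). The BH3-only gene Bmf rose by 0.54. Antioxidant and ferroptosis genes were 4 higher (2 without control library 2 or DFO library 11 or with DESeq2) and 10 lower of 30 (median -0.07), among them Lpcat3, which puts polyunsaturated chains into phospholipids, down by 0.55, and glutathione reductase (Gsr), down by 0.29. Fatty acid oxidation genes were 2 higher (1 without control library 1 or DFO library 11 or with DESeq2) and 5 lower of 20 (median -0.07). T and NK cell genes were 4 higher and none lower of 9, at 0.00641% and 0.00741% of counts in the controls and 0.0107%, 0.0109% and 0.0108% with DFO.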
